A study of Rattus norvegicus with 138 samples.

Results

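The tibialis anterior (TA) muscle of rats with an unrepaired volumetric muscle loss (VML) injury was compared, 3 days post injury (DPI), with the TA muscle of rats that carried no wound. VML is the loss of a piece of muscle too large for the tissue to replace. Of the 138 libraries of the series, 7 enter this comparison: 3 injured muscles, each from a different rat, and 4 control muscles, the left and right TA of 2 rats. They were chosen by their labels alone, as day 3 muscles with VML, no running and no repair and as day 0 muscles labelled Sham, which the study describes as unoperated. All were young adult male rats of the inbred Lewis strain, none had run and none had a graft. In the injured rats a 6 mm punch had removed tissue from the middle of 1 TA muscle. Total RNA of the muscle was sequenced, and its unit here is TPM, a transcript abundance that corrects for transcript length and scales every library to the same total.

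The control rats belong to one numbered series of animals and the operated rats to another, so the animal series and the injury cannot be told apart against control muscle alone. The uninjured contralateral TA of injured rats 1 and 2 was sequenced as well, and its values are given for some of the genes below and not for all. RNA came from all cells of the tissue, so more cells of a type and more RNA per cell cannot be told apart for any gene below. The p values rest on the spread between muscles within groups, taken over 68 muscles of 17 groups and not over these 7 alone. The left and right muscles of a control rat were counted as separate, so the p values do not measure the spread between control rats.

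In injured muscle, broken fibers spill their content, and blood enters the wound. Neutrophils and then monocytes arrive along chemokine gradients, monocytes become macrophages that take up dead tissue, and their enzymes break down heme, iron complexes and lipids. Fibroblasts and fibroadipogenic progenitors lay down a provisional matrix and then collagen. Satellite cells, the stem cells of the fiber, pass through Pax7, Myod1 and Myog expression as they divide and fuse into new fibers, which first make embryonic sarcomere proteins.

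The control muscles carried the label of their tissue: Acta1, the actin of the skeletal muscle sarcomere, measured 48112, 44585, 45820 and 69428 TPM in control muscles 1 to 4. Between 7866 and 8914 symbols were above 1 TPM in a control muscle and between 10479 and 10691 in an injured muscle. TPM values do not carry the depth of their library, so no counting error is given. The deposited values end with symbols that begin with Tubb, so symbols that sort after it were not analysed here, which shortens several of the lists below. Other listed symbols that sort before it, such as Col4a2, Lama2 and Ryr1, had no value either. Pearson's r of log2(TPM + 1) across genes, which are not independent replicates, was 0.974 to 0.994 over 6 pairs of control muscles, 0.976 to 0.986 over 3 pairs of injured muscles and 0.769 to 0.8289 over 12 pairs of an injured and a control muscle. One muscle of each group stood apart. Control muscle 4, the right TA of rat 2, had the fewest symbols above 1 TPM, and its 10 most abundant genes held 39.1% of TPM against 29.4% to 30.6% in the other control muscles. In injured muscle 3 the hemoglobin genes held 9.33% of TPM, against 0.675% and 1.00% in the other injured muscles and 0.196% to 0.543% in control muscle, and ribosomal RNA held 0.852% against at most 0.139%. The part of blood in its values was not tested.

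A gene was tested if its mean was above 1 TPM in at least 1 of the 17 groups of non-running rats, which left 11213 genes. It is called here when the adjusted p of limma's moderated test was under 0.05 and the log2 fold change was beyond 1. Between injured and control muscle 5474 genes (48.8%) were called higher and 478 (4.26%) lower. Of these, 5420 higher and 445 lower genes had groups that did not overlap, as did 77.6% of all tested genes. TPM forces a trade between genes, and the middle gene had a log2 fold change of 0.97. An abundant gene with no change relative to the others therefore lies near or above this value and not near 0. For low genes the added 1 TPM makes this offset smaller. The rescaling described next moved the abundant Acta1 from -1.94 to -3.08 and the low Gzmb from 0.70 to 0.43. When the TPM values were divided by median-of-ratios size factors, which bring the middle gene to a common level, the median was 0.09, and 2732 genes (24.7% of 11044) were called higher and 1868 (16.9%) lower. The share of calls that were higher was 92.0% on deposited TPM and 59.4% on rescaled TPM. No gene was called in opposite directions on the 2 scales, and all 2732 and all 478 were called on both. Counts are therefore given on both scales below, the second as rescaled, and each count of a list is to be read beside these shares of all tested genes. A gene at or under 1 TPM in control muscle mostly passed the filter through its level in injured tissue and could hardly be called lower: 1590 of 2481 such genes were called higher and 0 lower, against 3884 and 478 of 8732 genes above 1 TPM in control muscle. Without control muscle 4 the counts on deposited TPM were 4912 and 590, and without injured muscle 3 they were 5640 and 496. Against the contralateral muscle of the same day, 3660 genes were called higher and 673 lower. With the 13 low-complexity libraries of the series kept in the model, 5118 were called higher and 282 lower. Among genes named below Ache, Chac1, Cox8b, Fabp4, S100a1, Scn4a, Tfrc and Trim63 were then not called. Their log2 fold changes were the same in that fit, and only the adjusted p rose above 0.05. For genes named below as called on deposited TPM the injured and control groups do not overlap, with the exceptions of Fos and Scn4a.

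**Figure D1:**
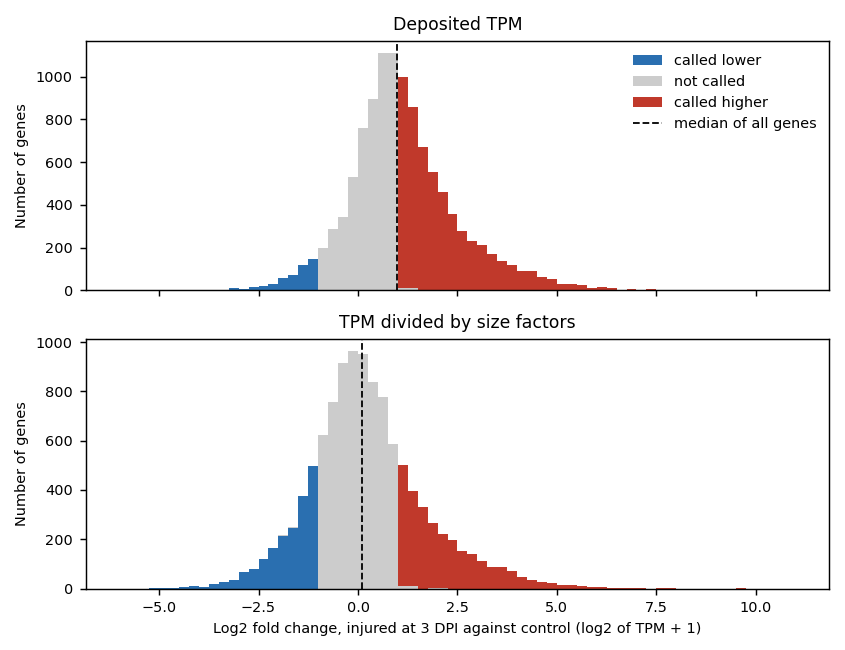
Number of tested genes (vertical axis) by log2 fold change of injured muscle at 3 DPI against control muscle (horizontal axis), on deposited TPM (top) and on TPM divided by size factors (bottom), with the median as a dashed line and calls in color. Most of the distribution sits to the right of 0 on deposited TPM, with a median of 0.97, and it centers near 0 after rescaling, with a median of 0.09.

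The make-up of the RNA differed between the groups in a few large blocks. The 23 genes of the fast fiber sarcomere and its calcium handling summed to 33.9% to 41.8% of TPM in control muscle and to 6.99% to 9.42% in injured muscle. Their sums did not overlap, and glycolytic enzymes moved with them, from 9.04% to 11.5% down to 2.10% to 2.45%. The cytosolic ribosomal proteins went the other way, from 5.54% to 6.36% in control muscle to 13.1% to 17.1% in injured muscle. Of 10266 symbols above 1 TPM in all injured muscles, 1337 were under 1 TPM in all control muscles, and 14 symbols showed the reverse. There were 99 symbols above 5 TPM in all injured muscles and under 0.2 TPM in all control muscles, and 0 symbols met these limits the other way round. A further count, of symbols listed at 0 in all control muscles and above 1 TPM in all injured muscles, gave 65.

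**Figure D2:**
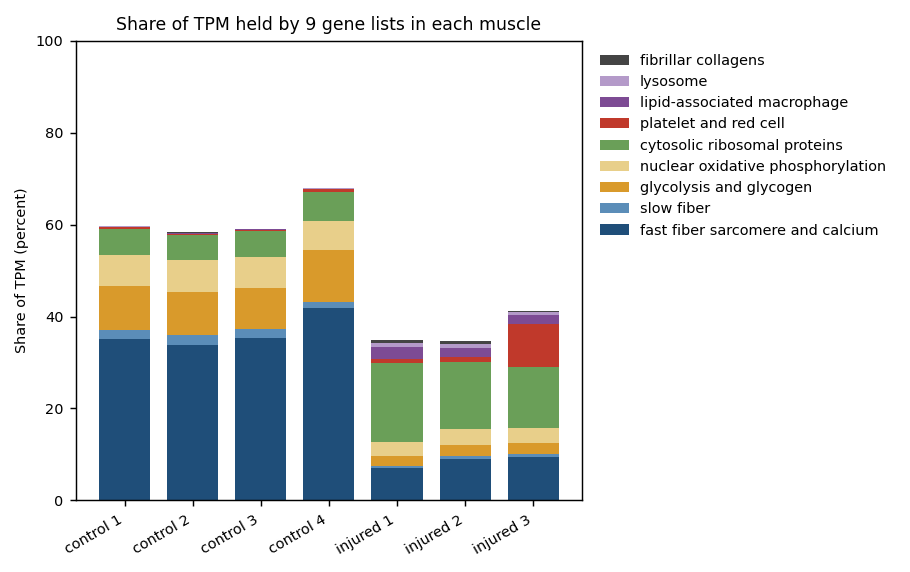
Share of TPM (percent, vertical axis) held by 9 gene lists in each of the 4 control and 3 injured muscles, stacked, with a gene of 2 lists counted in the first. Fast fiber genes hold 33.9% to 41.8% in control and 6.99% to 9.42% in injured muscle, and the red band of platelet and red cell genes reaches 9.39% in injured muscle 3.

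**Figure D3:**
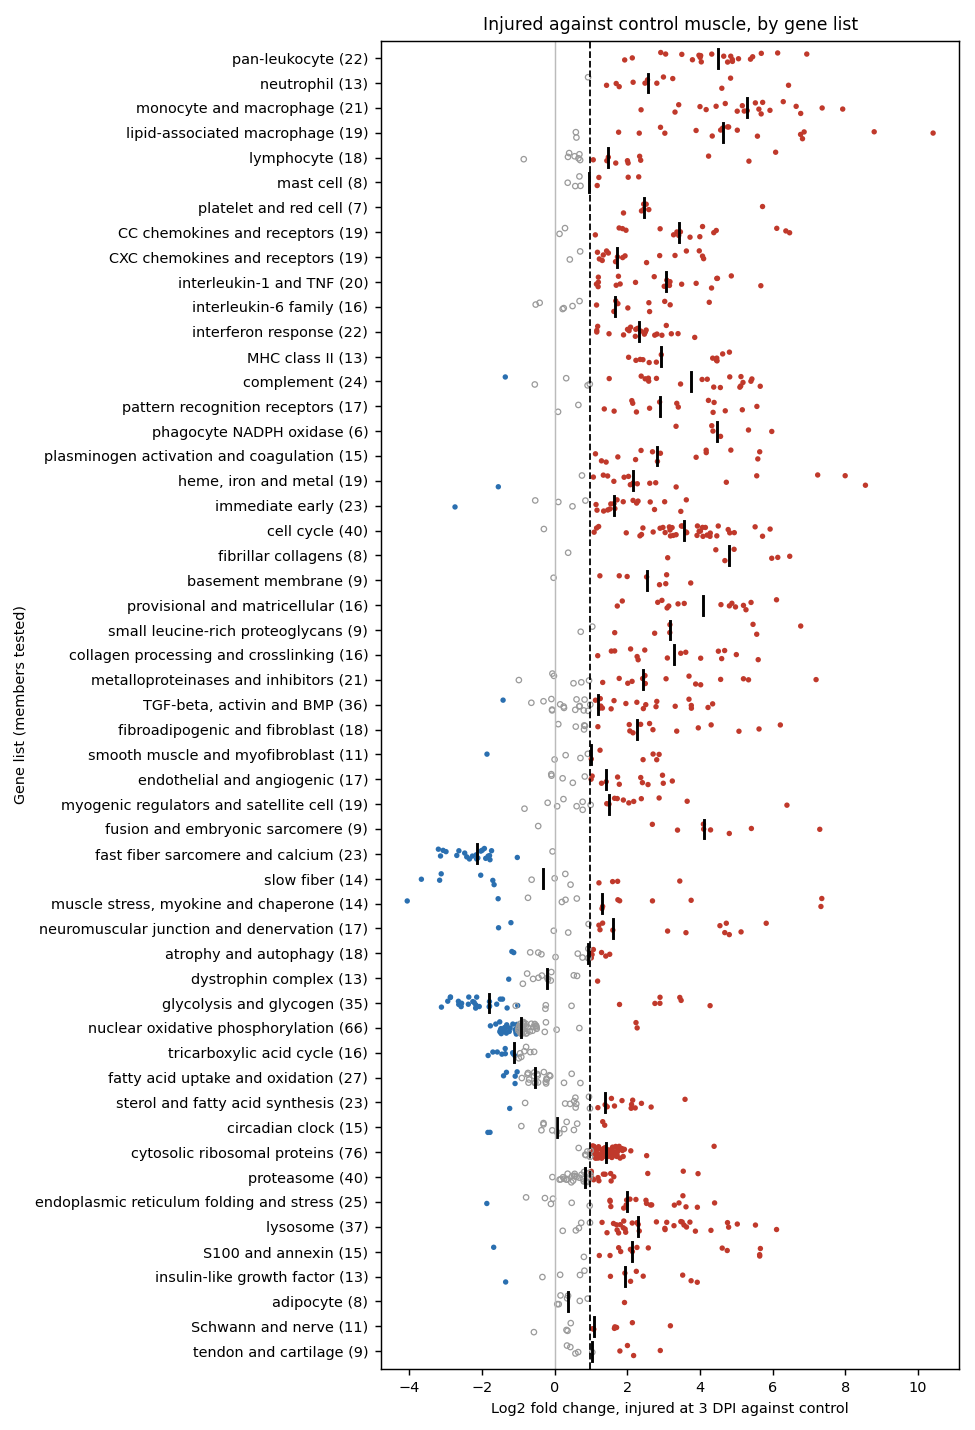
Log2 fold change of injured against control muscle (horizontal axis) for the tested members of each gene list (vertical axis), with each point 1 gene, filled when called on deposited TPM, and a bar at the list's median. The dashed line at 0.97 is the median of all tested genes, and the medians of the pan-leukocyte (4.49), macrophage (5.30) and fibrillar collagen (4.81) lists lie to its right while those of the fast fiber (-2.15) and glycolysis (-1.80) lists lie to its left.

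The first group to describe is the leukocytes. Of 22 (of 25 listed) pan-leukocyte genes tested, 22 were called higher on both scales, with a median log2 fold change of 4.49 on deposited TPM and 3.63 rescaled. Ptprc, which encodes the phosphatase CD45 on all white blood cells, measured 0.42, 0.47, 0.64 and 0.08 TPM in control muscles 1 to 4 and 37.9, 42.5 and 40.1 TPM in injured muscles 1 to 3. Fcer1g, the signaling chain shared by Fc receptors, measured 4.62, 4.64, 5.92 and 4.02 TPM in control and 925, 636 and 599.9 TPM in injured muscle (log2 fold change 6.94 ± 0.31 SE, adjusted p 6.2e-27). The contralateral muscles held 3.86 and 1.39 TPM of Ptprc, above the control muscles and far under the injured ones.

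Monocyte and macrophage genes had the highest median of the lists described here. All 21 (of 23 listed) monocyte and macrophage genes tested were called higher on both scales, with a median of 5.30 (4.73 rescaled). Lyz2, the lysozyme of macrophages, measured 16.01, 15.7, 22.9 and 8.6 TPM in control and 4550.3, 3350.3 and 3870.2 TPM in injured muscle. The contralateral muscles held 136 and 42.3 TPM of Lyz2, above every control muscle. Csf1r, the receptor that macrophages need to survive, measured 2.82, 3.2, 4.38 and 2.32 TPM in control and 214, 224 and 212 TPM in injured muscle (log2 fold change 5.73 ± 0.23 SE, adjusted p 1.2e-28). Mrc1, the mannose receptor, rose from at most 1.39 TPM in control muscle to 121, 139 and 119.7 TPM. Cd163, the receptor that takes up hemoglobin, rose from at most 1.47 TPM to 104, 119.96 and 107 TPM. For each of these genes the injured muscles lay far closer to each other than to any control muscle. Ccr2, which draws monocytes from blood, reached 16.7, 9.22 and 6.56 TPM and was highest in injured muscle 1. Of 19 genes of lipid-laden macrophages, 17 were called higher (16 rescaled), with Spp1 and Gpnmb at the top of the whole table. Gpnmb, a glycoprotein of phagocytes with heavy lysosomal load, measured 2.08, 2.65, 4.26 and 1.63 TPM in control and 1963, 1312 and 1501 TPM in injured muscle (log2 fold change 8.80 ± 0.47 SE, adjusted p 6.2e-24), and the first contralateral muscle, at 42.8 TPM, lay between the groups. Receptors of myeloid cells also stood among the 12 highest genes, Lilrb4 at a log2 fold change of 7.72 and Clec4a3 at 7.64, as did the unnamed locus LOC498276 at 7.43. Clec4a3 belongs to a family of closely related genes, between which reads may be split.

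Neutrophil genes summed to fewer TPM than macrophage genes in each injured muscle, 448, 215 and 424 against 6873, 5280 and 5649 TPM. Of 13 (of 23 listed) tested, 12 were called higher on both scales. The granule genes Mpo, Elane and Ltf stayed at or under the filter and were not tested. S100a8 and S100a9, subunits of calprotectin, varied between injured muscles: S100a8 measured 82.5, 26.9 and 119 TPM against at most 1.6 TPM in control muscle, and S100a9 93.97, 37.3 and 135 TPM against at most 3.93 TPM. Injured muscle 2 was lowest for both, though above every control muscle. Contralateral muscle 1 reached 39.5 TPM of S100a8, which is above injured muscle 2. Csf3r, the G-CSF receptor of neutrophils, measured 0.18, 0.06, 0.16 and 0 TPM in control and 9.67, 8.84 and 9.85 TPM in injured muscle.

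The lymphocyte list holds genes of T, B and killer cells. Of 18 (of 24 listed) tested, 11 were called higher and 0 lower (9 and 1 rescaled), beside 48.8% of all tested genes called higher (24.7% rescaled), and 3 of those tested were above 1 TPM on average in control muscle. Cd8a reached 82.95, 86.5 and 80.8 TPM and Cd4 150.4, 153 and 111 TPM, from at most 0.39 and 3.03 TPM in control muscle. In the rat, monocytes and macrophages also carry Cd4. Cd3d, a subunit of the T cell receptor complex, reached only 3.06, 1.73 and 1.55 TPM. Gzmb, the granzyme of killer cells, measured 0.4, 1.41 and 0.69 TPM and was not called, although its groups did not overlap. With a pseudocount of 0.1 TPM it was called, at a log2 fold change of 2.08. For mast cells the share was near the background, with 4 of 8 (of 9 listed) called higher (2 rescaled). The mast cell protease Cpa3 measured 1.17, 2.13, 1.09 and 0.82 TPM in control and 12.9, 9.28 and 8.86 TPM in injured muscle. Contralateral muscle 1 held 8.58 TPM, near the lowest injured muscle, and against the contralateral muscle Cpa3 was not called (log2 fold change 0.75).

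Chemokines are the signals that attract these cells. Of 19 (of 23 listed) CC chemokines and receptors tested, 17 were called higher, and 14 after rescaling. Ccl7, a ligand of Ccr2, measured 0.24, 0.71, 0.88 and 0 TPM in control and 133, 112 and 103 TPM in injured muscle (log2 fold change 6.36 ± 0.42 SE, adjusted p 1.7e-20). Ccl6 was the most abundant ligand of the list, at 625, 780.2 and 478 TPM in injured and at most 8.78 TPM in control muscle. Among 19 CXC genes, 17 were called higher and 12 after rescaling. Cxcl1, which draws neutrophils, measured 0, 0.24, 0.46 and 0 TPM in control and 5.1, 8.31 and 4.31 TPM in injured muscle. Cxcl10, a target of interferon, measured 17.1, 86.5 and 12.4 TPM, with injured muscle 2 highest. Cxcl12 and Cxcl14, made by resident stromal cells, were called higher on deposited TPM (1.87 and 1.94) but not after rescaling (0.75 and 0.82).

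All 20 (of 22 listed) tested genes of the interleukin-1 and TNF group were called higher, 15 of them after rescaling. Il1b, the ligand, measured 0.51, 0.08, 0.42 and 0.11 TPM in control and 10.2, 8.42 and 9.15 TPM in injured muscle and its soluble antagonist Il1rn 0.09, 0.09, 0.12 and 0.07 TPM in control and 30.2, 13.8 and 21.4 TPM in injured muscle. The antagonist exceeded the ligand in all 3 injured muscles, a comparison of levels per transcript length. Il1rl1, the receptor of interleukin-33, had the highest change of the group at 5.68, and its ligand Il33 reached 69.8, 78.7 and 52.96 TPM. Nos2, which makes nitric oxide in macrophages, measured 0.66, 0.66, 0.75 and 0.54 TPM in control and 3.75, 2.12 and 2.31 TPM in injured muscle and was not called after rescaling (0.53), without injured muscle 1 (0.96) or against the contralateral muscle (0.82).

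In the interleukin-6 family 10 of 16 genes were called higher (7 rescaled, with 2 lower), beside 48.8% of all tested genes. Il6 measured 0.09, 0, 0 and 0.15 TPM in control and 5.42, 10.99 and 10.4 TPM in injured muscle, and Socs3, the feedback inhibitor of its receptor, 3.78, 2.87, 3.53 and 1.32 TPM in control and 48.5, 99.9 and 71.5 TPM in injured muscle. The oncostatin M receptor Osmr reached 13.1, 23.8 and 19.3 TPM. All 22 (of 23 listed) interferon response genes tested were called higher, 18 after rescaling, but the 3 injured muscles differed in level. Their summed level was 1102, 1130 and 568.9 TPM in injured muscles 1 to 3. Mx1, an antiviral GTPase, measured 1, 0.97, 0.98 and 0.22 TPM in control and 20.04, 71.5 and 9.77 TPM in injured muscle. Isg15, a ubiquitin-like protein, measured 59.6, 79.4 and 15.2 TPM, and the lowest of these lay under the 22.9 TPM of contralateral muscle 1. All 13 MHC class II genes were called higher on both scales, led by RT1-Da at 11.4, 11.4, 12.6 and 8.86 TPM in control and 448, 310.4 and 271 TPM in injured muscle and Cd74, the invariant chain, at 1088, 702 and 559 TPM.

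Innate sensing and killing genes come next. Among 17 (of 18 listed) pattern recognition receptors 15 were called higher (14 rescaled). Tlr2, the receptor of bacterial lipoproteins, measured 0.21, 0.41, 0.4 and 0.21 TPM in control and 74.5, 59.2 and 50.9 TPM in injured muscle, and Cd14, its co-receptor, reached 128, 92.9 and 77.8 TPM. The 6 subunits of the phagocyte NADPH oxidase were called higher on both scales, with Cybb, its catalytic subunit, at 0.72, 0.53, 0.86 and 0.25 TPM in control and 76.5, 120.5 and 102 TPM in injured muscle. Of 24 (of 29 listed) complement genes tested, 19 were called higher and 1 lower (19 and 2 rescaled). C1qa, a subunit of the first component, reached 426, 414 and 281 TPM and the anaphylatoxin receptor C5ar1 111, 79.6 and 79.7 TPM. C3, the central component, measured 0.03, 0.04, 0.07 and 0 TPM in control and 2.36, 1.54 and 1.94 TPM in injured muscle, far under C1qa. Masp1 was lower, at 5.91, 12.5 and 10.1 TPM against 23.1, 21.1, 23.2 and 34.1 TPM. In plasminogen activation and coagulation all 15 (of 16 listed) tested genes were called higher (12 rescaled), among them the activator Plau (3.89) and its receptor Plaur (4.17).

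Heme and metal handling held some of the largest changes, with 17 of 19 (of 20 listed) genes called higher and 1 lower (11 and 1 rescaled). Hmox1, the oxygenase that opens the heme ring, measured 2.24, 2.84, 3.98 and 1.73 TPM in control and 899.7, 1047 and 829 TPM in injured muscle (log2 fold change 8.0 ± 0.49 SE, adjusted p 8.9e-22). It was not highest in injured muscle 3, the muscle with the most hemoglobin RNA. The metallothioneins Mt1 and Mt2A bind zinc and copper. Mt1 measured 2.06, 3.26, 3.56 and 0.6 TPM in control and 1383, 852 and 1374 TPM in injured muscle, and Mt2A 8.37, 11.9, 6.61 and 2.82 TPM in control and 1389, 821 and 1384 TPM in injured muscle. The injured muscles lay far above the controls, and muscle 2 was lowest for both. The 2 genes had nearly equal levels in each injured muscle, and the contralateral muscles, at 15.9 and 11.9 TPM of Mt1, also exceeded the control muscles. Tfrc, the receptor that takes iron into cells, went down, at 110.4, 109.6, 84.4 and 37.1 TPM in control and 21.8, 32.2 and 25.3 TPM in injured muscle (log2 fold change -1.55 ± 0.30 SE, adjusted p 6.7e-06). Control muscle 4 was the lowest of the controls for Tfrc and lay nearest to the injured muscles. The contralateral muscles held 18.5 and 37.2 TPM of Tfrc, the first just under and the second just above the injured range, and against them it was not called (-0.01).

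Because the 2 metallothionein genes moved together, the 250 bases before their starts are shown, from RefSeq (build GRCr8, not the build of the deposited values, matched by symbol). Capitals mark matches to the core of the metal response element, searched as TGCACNC and TGCGCNC on both strands, a motif chosen after the values were seen.
Mt1, chr19:10832976-10833225, minus strand: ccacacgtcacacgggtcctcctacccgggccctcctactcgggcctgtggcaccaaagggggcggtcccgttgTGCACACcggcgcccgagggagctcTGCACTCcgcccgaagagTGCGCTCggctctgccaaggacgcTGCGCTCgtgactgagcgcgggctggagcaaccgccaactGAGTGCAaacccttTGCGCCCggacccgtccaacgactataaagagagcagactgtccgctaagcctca
Mt2A, chr19:10838709-10838958, minus strand: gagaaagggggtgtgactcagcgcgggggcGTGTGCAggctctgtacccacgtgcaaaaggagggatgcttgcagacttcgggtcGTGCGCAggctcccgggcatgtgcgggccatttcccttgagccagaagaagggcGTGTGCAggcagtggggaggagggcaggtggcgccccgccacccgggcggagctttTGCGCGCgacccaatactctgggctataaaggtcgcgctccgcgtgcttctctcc
The window of Mt1 holds 6 matches and that of Mt2A 4, against at least 1 match in 20.6% and at least 4 in 0.266% of 33469 windows of this length in the table. Both strands were counted together, and a match describes letters, not binding.

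Cell cycle genes come from dividing cells of any type. Of 40 (of 42 listed) cell cycle genes tested, 39 were called higher (36 rescaled, with 1 lower), with a median of 3.56. Mki67, present in cycling cells only, measured 0.21, 0.16, 0.11 and 0.05 TPM in control and 17.1, 20.1 and 17.4 TPM in injured muscle. Top2a, the topoisomerase of dividing cells, rose from at most 0.13 TPM to 21.3, 21.8 and 17.6 TPM. Cdkn1a, an inhibitor of the cycle that also marks fusing myoblasts, had the highest change of the list, at 4.71, 6.76, 3.54 and 2.79 TPM in control and 312, 348 and 301 TPM in injured muscle (log2 fold change 5.93 ± 0.34 SE, adjusted p 5.0e-23). Immediate early genes were mixed, with 18 of 23 called higher and 1 lower (10 and 3 rescaled). Junb, Myc and Fosl1 were higher on both scales (3.62, 3.47 and 3.03). Fos measured 14.8, 25.98, 9.84 and 3.02 TPM in control and 28.3, 25.98 and 21.7 TPM in injured muscle, so that the groups overlapped. It was called on deposited TPM (1.16) but not after rescaling (0.12), without control muscle 4 (0.65), without injured muscle 1 (1.08), with the control muscles averaged per rat (1.05), in a model of the 2 groups alone or against the contralateral muscle (0.78). Nr4a1, an orphan nuclear receptor, was called lower, at 169, 209, 113 and 57.5 TPM in control and 10.98, 29.6 and 16.3 TPM in injured muscle.

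The matrix lists held the provisional matrix beside collagen. All 16 (of 21 listed) provisional and matricellular genes tested were called higher, 14 after rescaling. Fn1, fibronectin, measured 9.23, 10.2, 10.5 and 3.52 TPM in control and 428, 475 and 252 TPM in injured muscle, and Tnc, tenascin-C, 0.16, 0.21, 0.36 and 0.09 TPM in control and 49.1, 72.7 and 25.8 TPM in injured muscle (log2 fold change 5.27 ± 0.42 SE, adjusted p 3.1e-17). Both were lowest in injured muscle 3. Thbs1, thrombospondin, reached 47.3, 105 and 62.8 TPM, and the hyaluronan synthase Has1 8.86, 10.7 and 5.68 TPM from at most 0.07 TPM. Of 8 (of 9 listed) fibrillar collagen genes 7 were called higher on both scales. Col3a1 measured 40.4, 42.6, 44.9 and 16.8 TPM in control and 2845, 2973 and 1761 TPM in injured muscle, and injured muscle 3 was lowest for it. The contralateral muscles held 231 and 174 TPM of Col3a1, above every control muscle. Enzymes that fold and crosslink collagen were called higher for 16 of 16 (of 17 listed) genes (14 rescaled), led by the lysyl oxidase Lox at 0.41, 0.61, 0.59 and 0.08 TPM in control and 62.2, 104 and 47.1 TPM in injured muscle (log2 fold change 5.60 ± 0.33 SE, adjusted p 1.6e-22). Of 9 (of 10 listed) small leucine-rich proteoglycans 7 were called higher (6 rescaled). Lumican, Lum, measured 7.5, 9.5, 11.5 and 2.23 TPM in control and 932, 1037 and 628 TPM in injured muscle. Decorin, Dcn, measured 102, 109, 131 and 32.9 TPM in control and 869, 768 and 654 TPM in injured muscle. Contralateral muscle 1 held 640.5 TPM of Dcn, close to injured muscle 3, and against the contralateral muscle it was not called (1.00). Of 9 (of 15 listed) basement membrane genes 8 were called higher and 5 after rescaling, with 1 lower.

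Proteases and their inhibitors shape the matrix. Of 21 (of 23 listed) tested, 15 were called higher and 0 lower (15 and 3 rescaled). Timp1, an inhibitor, measured 1.45, 2.85, 3.2 and 1.14 TPM in control and 813, 348 and 309 TPM in injured muscle (log2 fold change 7.20 ± 0.41 SE, adjusted p 4.2e-23). Mmp14, which cleaves collagen at the cell surface, measured 3.5, 2.94, 3.59 and 1.14 TPM in control and 154, 129.8 and 116 TPM in injured muscle. Mmp12, the elastase of macrophages, was listed at 0 in 3 control muscles and measured 31.5, 12.1 and 31.4 TPM in injured muscle. Mmp3, stromelysin, was uneven, at 0.09, 0, 0.04 and 0.08 TPM in control and 20.1, 1.8 and 2.53 TPM in injured muscle. Its call rested on injured muscle 1 and was lost without it (1.58) and against the contralateral muscle (1.69). Timp4, an inhibitor expressed in healthy muscle, had a log2 fold change of -0.99 that fell just short of a call on deposited TPM. It was called lower after rescaling (-2.01), with a pseudocount of 0.1 TPM (-1.10), against the contralateral muscle (-1.21), without injured muscle 2 (-1.07) and without control muscle 4 (-1.05).

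The TGF-beta, activin and BMP list was close to the background, with 19 of 36 (of 38 listed) genes called higher and 1 lower, and 12 and 3 after rescaling. Tgfb1, the ligand, measured 3.92, 3.44, 3.34 and 2.97 TPM in control and 106, 79.2 and 63.3 TPM in injured muscle (log2 fold change 4.22 ± 0.19 SE, adjusted p 1.7e-26). Gdf15, a stress cytokine of the same family, rose from at most 0.2 TPM to 14.8, 14.7 and 9.06 TPM. Mstn, myostatin, the fiber's own brake on growth, was called lower, at 21.2, 20.6, 25.5 and 11.8 TPM in control and 4.18, 8.07 and 7.96 TPM in injured muscle. Its antagonist Fst rose to 13.7, 20.7 and 15.3 TPM from at most 1.14 TPM. Fibroadipogenic and fibroblast genes were called higher for 13 of 18 (of 20 listed) (12 rescaled). Pdgfra, their defining receptor, measured 1.38, 1.69, 1.69 and 0.63 TPM in control and 43.3, 56.4 and 36.2 TPM in injured muscle (log2 fold change 4.31 ± 0.21 SE, adjusted p 6.3e-26). Pdpn, a membrane glycoprotein of activated fibroblasts and macrophages, measured 2.03, 2.9, 2.76 and 1.62 TPM in control and 165, 97.1 and 82.1 TPM in injured muscle.

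The vessel lists hold smooth muscle and endothelial genes. Of 11 smooth muscle and myofibroblast genes, 6 were called higher and 1 lower (4 and 2 rescaled), beside 48.8% and 4.26% of all tested genes (24.7% and 16.9% rescaled). Tagln, an actin-binding protein of contractile cells, measured 33.3, 29.6, 34.8 and 20.7 TPM in control and 225, 301 and 136 TPM in injured muscle. Myh11, the myosin of mature smooth muscle, measured 10.4, 9.58, 11.4 and 4.71 TPM in control and 6.35, 14.5 and 6.72 TPM in injured muscle. It overlapped between the groups and was called lower after rescaling (-1.03). Of 17 (of 20 listed) endothelial genes tested, 12 were called higher (6 rescaled, with 1 lower). The adhesion genes Icam1 and Selp, which catch leukocytes, were called on both scales (3.24 and 2.37). Pecam1, a junction gene of all endothelium, was called on deposited TPM (1.73) and not after rescaling (0.63). The VEGF receptor Kdr measured 8.87, 9.68, 7.31 and 3.85 TPM in control and 8.39, 9.43 and 7.45 TPM in injured muscle, with groups that overlapped and no call on either scale.

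The myogenic genes mark satellite cells and their progeny. Of 19 (of 22 listed) tested, 11 were called higher (8 rescaled, with 3 lower), beside 48.8% of all tested genes called higher (24.7% rescaled, with 16.9% lower). Myog, the factor of differentiating myoblasts, measured 4.55, 5.3, 8 and 2.44 TPM in control and 423, 518 and 509.9 TPM in injured muscle (log2 fold change 6.39 ± 0.34 SE, adjusted p 4.0e-24). Pax7, the factor of satellite cells, measured 0.33, 0.47, 0.83 and 0.39 TPM in control and 1.69, 5.57 and 2.71 TPM in injured muscle, and Myod1, of activated cells, 43.1, 33.3, 28.3 and 19.5 TPM in control and 103, 76.8 and 80.5 TPM in injured muscle. Both were called higher on deposited TPM and not after rescaling (0.85 and 0.38), and Myod1 was not called against the contralateral muscle (0.62). Injured muscle 2 was highest for Pax7 and injured muscle 1 for Myod1. Myf6, the factor of mature fibers, measured 128, 141, 108 and 54.4 TPM in control and 173, 162 and 189 TPM in injured muscle and was not called.

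Genes of fusing cells and of the embryonic sarcomere had a median of 4.10. Of 9 (of 11 listed) tested, 8 were called higher on both scales, and 1 was called lower after rescaling. Tmem8c, which encodes the fusion protein myomaker, measured 0.06, 0.22, 0.06 and 0.1 TPM in control and 45.9, 65.7 and 32.7 TPM in injured muscle (log2 fold change 5.41 ± 0.31 SE, adjusted p 1.0e-22). Tnnt2, cardiac troponin T, which embryonic muscle also makes, measured 1.21, 1.76, 1.13 and 1.12 TPM in control and 327, 535 and 266 TPM in injured muscle. Embryonic myosin, Myh3, measured 2.41, 2.91, 2.55 and 1.55 TPM in control and 38.4, 103 and 43.2 TPM in injured muscle, and injured muscle 2 was highest for these genes. The member called lower after rescaling was the perinatal myosin Myh8, which was not called on deposited TPM, at 7.41, 8.33, 7.54 and 6.57 TPM in control and 3.5, 8.01 and 4.76 TPM in injured muscle.

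**Figure D4:**
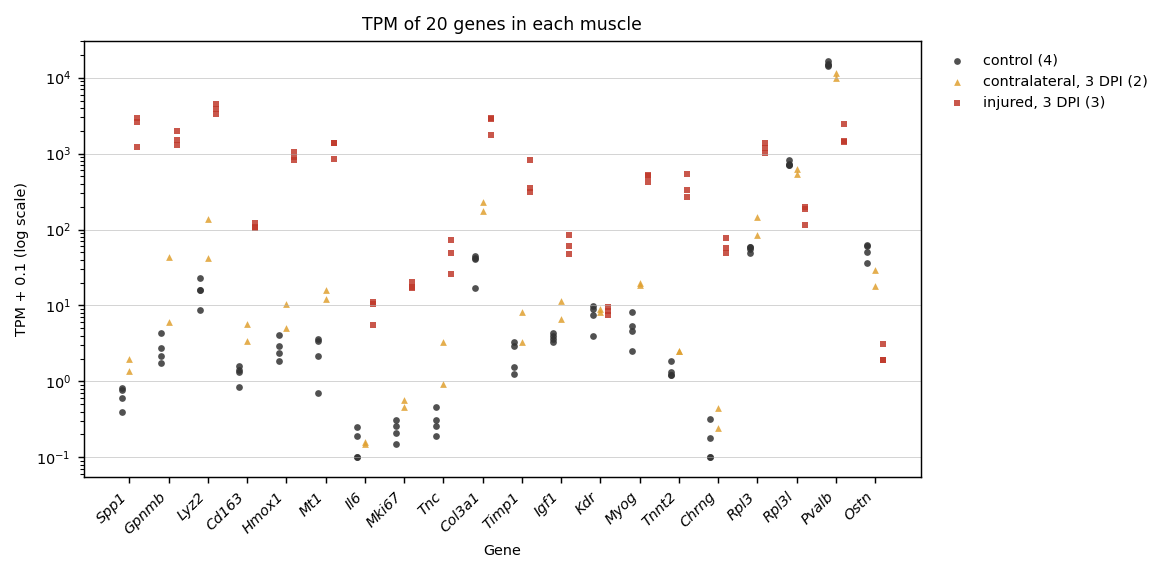
TPM of 20 genes (vertical axis, log scale, 0.1 TPM added so that 0 can be drawn) in 4 control muscles, 2 contralateral muscles of the same day and 3 injured muscles, each point 1 muscle. Spp1 goes from under 1 TPM to above 1000 TPM, Chrng from at most 0.22 TPM to at least 48.8 TPM, and Kdr from 3.85 to 9.68 TPM in control muscle to 7.45 to 9.43 TPM in injured muscle, while Pvalb and Ostn are lower in every injured than in every control muscle.

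Stress genes of the fiber held changes at both ends of the table. Of 14 (of 16 listed) stress, myokine and chaperone genes, 8 were called higher and 2 lower (4 and 3 rescaled), beside 48.8% of all tested genes called higher. Sln, sarcolipin, an inhibitor of the calcium pump, measured 21.4, 17.3, 32.3 and 14.8 TPM in control and 3068, 3793 and 3767 TPM in injured muscle (log2 fold change 7.35 ± 0.34 SE, adjusted p 1.8e-26). Ankrd1, a titin-bound protein of strained fibers, measured 4.34, 4.64, 6.64 and 5.35 TPM in control and 856, 1172 and 979 TPM in injured muscle. Ostn, which encodes the secreted peptide musclin, had the lowest log2 fold change of all tested genes, at 61.8, 51.2, 61.3 and 36.5 TPM in control and 1.79, 3.02 and 1.79 TPM in injured muscle (log2 fold change -4.06 ± 0.60 SE, adjusted p 1.7e-08). The contralateral muscles, with 17.9 and 28.9 TPM of Ostn, also lay under every control muscle.

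At the endplate, fibers that lose their nerve are known to return to fetal receptor forms. Of 17 tested, 12 were called higher and 2 lower (8 and 3 rescaled). The fetal acetylcholine receptor subunit Chrng measured 0, 0.22, 0.08 and 0 TPM in control and 48.8, 76.6 and 56.7 TPM in injured muscle (log2 fold change 5.82 ± 0.38 SE, adjusted p 1.5e-20). The subunits Chrna1 and Chrnd belong to both receptor forms. Chrna1 rose from at most 5.99 TPM to 118, 163 and 159.7 TPM, and Chrnd from at most 3.61 TPM to 129.7, 180.1 and 165 TPM. All 3 subunits were highest in injured muscle 2. The sodium channel of adult muscle, Scn4a, measured 71.8, 75.99, 63.4 and 37.5 TPM in control and 14.3, 38.4 and 29.8 TPM in injured muscle, with injured muscle 2 above control muscle 4, and it was not called without injured muscle 1 (-0.81). Runx1, a factor of denervated muscle, reached 49.3, 70.8 and 68.2 TPM. Ache, the esterase of the synapse, was lower (-1.55).

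For the receptor subunits that moved together, the 250 bases before the starts of Chrna1, Chrnd and Chrng are given from the same RefSeq table. Capitals mark the E-box form CAGCTG, the same on both strands and bound by factors of the Myod1 family, again chosen after the values were seen.
Chrna1, chr3:78877354-78877603, minus strand: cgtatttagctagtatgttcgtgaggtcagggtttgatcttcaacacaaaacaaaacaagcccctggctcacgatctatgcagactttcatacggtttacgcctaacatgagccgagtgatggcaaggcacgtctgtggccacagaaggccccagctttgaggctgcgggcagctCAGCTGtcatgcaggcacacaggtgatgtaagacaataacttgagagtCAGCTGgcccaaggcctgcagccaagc
Chrnd, chr9:95310066-95310315, plus strand: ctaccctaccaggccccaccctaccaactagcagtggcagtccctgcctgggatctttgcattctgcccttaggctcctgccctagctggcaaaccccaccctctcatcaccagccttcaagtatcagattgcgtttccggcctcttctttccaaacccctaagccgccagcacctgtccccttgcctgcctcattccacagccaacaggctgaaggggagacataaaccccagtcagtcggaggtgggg
Chrng, chr9:95325734-95325983, plus strand: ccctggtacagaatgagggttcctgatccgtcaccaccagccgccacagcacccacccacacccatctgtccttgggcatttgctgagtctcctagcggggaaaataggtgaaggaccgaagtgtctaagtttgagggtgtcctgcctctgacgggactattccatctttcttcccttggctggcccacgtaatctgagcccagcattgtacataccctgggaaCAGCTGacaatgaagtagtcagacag
Chrna1 holds 2 matches, Chrng 1 and Chrnd 0, so the motif was in part of these windows, and 12% of the 33469 windows hold at least 1. Other forms of the E-box were not searched. No match says only that these letters are not in that window.

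The adult fiber lists hold genes of the fast and slow sarcomere and of calcium handling. Of 23 (of 26 listed) fast fiber genes tested, 22 were called lower on deposited TPM and 23 after rescaling. Myh4, the myosin of type 2B fibers, measured 26146, 23946, 23237 and 20929 TPM in control and 1823, 3672 and 3245 TPM in injured muscle (log2 fold change -3.07 ± 0.30 SE, adjusted p 6.0e-14). Pvalb, parvalbumin, which buffers calcium in fast fibers, measured 15040, 14617, 16791 and 14240 TPM in control and 1415, 1445 and 2451 TPM in injured muscle. Actn3 fell with them (-3.20), whereas Actn2, the Z-disc actinin of all fibers, measured 533, 536, 498 and 578 TPM in control and 397, 651 and 524 TPM in injured muscle and was not called before rescaling. Of 14 slow fiber genes 6 were called lower and 4 higher (7 and 1 rescaled). Myh7, slow myosin, measured 100.2, 76.8, 81.7 and 129.96 TPM in control and 2.97, 23.1 and 11.7 TPM in injured muscle, and Myl2, its light chain, 328, 362, 264 and 480.4 TPM in control and 7.54, 25.1 and 93.4 TPM in injured muscle. These 2 genes varied widely between injured muscles. Casq2, slow calsequestrin, was called higher, at 9.77, 11.1, 11.1 and 6.63 TPM in control and 78.9, 165 and 111 TPM in injured muscle. The 12 lowest genes with groups that did not overlap were Ostn, RGD1565323, Myl2, LOC100910189, Actn3, Gpd1, Ky, Myh7, Aqp4, Pvalb, Myl3 and Perm1, from -4.06 to -3.13. Among them Gpd1 (-3.19) is a glycerol phosphate dehydrogenase, Aqp4 (-3.15) the water channel of fast fibers, Ky (-3.19) a peptidase of the Z-disc region, and Perm1 a regulator of mitochondrial genes.

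Atrophy genes depended on the scale. Of 18 (of 19 listed) tested, 7 were called higher and 2 lower, a share under the 48.8% of all tested genes called higher, and after rescaling 0 were higher and 6 lower. Trim63, the ubiquitin ligase MuRF1, measured 224, 257, 232 and 126 TPM in control and 406, 493 and 780.2 TPM in injured muscle, with no call after rescaling (0.27) or against the contralateral muscle (0.72). Dystrophin complex genes were mostly not called on deposited TPM, with 1 higher and 1 lower of 13 (of 15 listed), while 10 were called lower after rescaling. Dmd, dystrophin, measured 26.8, 35.5, 29.4 and 9 TPM in control and 11.5, 34.7 and 23.2 TPM in injured muscle. It was not called on deposited TPM but was called lower after rescaling (-1.18) and against the contralateral muscle.

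Genes of energy metabolism were called lower in shares that depended on the scale. Of 35 glycolysis and glycogen genes, 24 were called lower and 7 higher (27 and 6 rescaled). Pygm, the phosphorylase that breaks glycogen in muscle, measured 8802, 8282, 8106 and 9178 TPM in control and 833, 1367 and 1408 TPM in injured muscle. Pfkm, the muscle phosphofructokinase, fell (-2.56) while its platelet form Pfkp rose from at most 0.92 TPM to 21.2, 18.7 and 11.6 TPM. Hk3, the hexokinase of myeloid cells, was listed at 0 in every control muscle and measured 23.7, 14.8 and 17.7 TPM. Glucose transporters parted in the same way, with Slc2a4 of fibers at 380.5, 426, 373 and 218 TPM in control and 54.3, 111 and 83.2 TPM in injured muscle and the general Slc2a1 at 1.02, 1.2, 1.56 and 0.86 TPM in control and 28.7, 24.9 and 16.8 TPM in injured muscle.

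Of 66 (of 79 listed) nuclear oxidative phosphorylation genes, 27 were called lower and 2 higher (63 and 2 rescaled). In 2 pairs of cytochrome oxidase subunits the muscle form was called lower and the form of other tissues higher, and those were the 2 members called higher. Cox8b, the heart and muscle form, measured 3429, 3465, 3463 and 4213 TPM in control and 807, 1149.6 and 1293 TPM in injured muscle, and Cox8a, the form of other tissues, 110.3, 123, 113 and 136 TPM in control and 725, 534 and 482 TPM in injured muscle. Cox6a2 and Cox6a1 parted likewise (-1.47 and 2.27). Of 16 (of 18 listed) tricarboxylic acid cycle genes 9 were called lower (16 rescaled), and of 27 (of 29 listed) fatty acid oxidation genes 5 (24 rescaled). Ppargc1a, a regulator of mitochondrial genes, measured 12.98, 13.5, 10.1 and 6 TPM in control and 1.64, 4.88 and 3.83 TPM in injured muscle. Of 23 (of 24 listed) sterol and fatty acid synthesis genes 13 were called higher and 1 lower (8 and 2 rescaled), not far from the 48.8% of all tested genes that were called higher, with Scd2 (3.59) and Msmo1 (2.65) the highest. Of 15 (of 19 listed) clock genes 2 were called lower and 2 higher (7 and 0 rescaled). Nr1d1 measured 99.4, 93.03, 108 and 91.5 TPM in control and 34.9, 20.2 and 26.5 TPM in injured muscle and Ciart 2.61, 1.25 and 1.22 TPM against 4.78, 8.47, 14.5 and 6.77 TPM. The hour of tissue collection was not analysed here.

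Protein machinery depended on the scale. Of 76 cytosolic ribosomal protein genes 70 were called higher on deposited TPM, with a median of 1.41, and 2 after rescaling, with a median of 0.26. Rpl3 was one of these 2, at 58.5, 56.02, 59.3 and 49.3 TPM in control and 1370, 1177 and 1033 TPM in injured muscle, and Rpl37a the other (1.41 rescaled). Rpl3l, the form of adult striated muscle, was not on the list and was looked up after Rpl3 was seen, at 712, 728, 708 and 825 TPM in control and 114, 199.6 and 186 TPM in injured muscle. It was called lower on both scales (-2.19 and -3.33). In every control muscle Rpl3l exceeded Rpl3, and in every injured muscle Rpl3 exceeded Rpl3l. Ribosomal protein genes have many processed copies in the genome, between which reads may be split. Of 40 proteasome genes 14 were called higher (3 rescaled, with 2 lower), under the shares of all tested genes of 48.8% and 24.7%. The highest were the immune subunits Psmb9 and Psmb8 (3.95 and 3.54). Lysosomal genes were called higher for 32 of 37 (21 rescaled). Ctsb, a cathepsin, measured 90.1, 81.7, 83.03 and 87.5 TPM in control and 3263, 2138 and 1957 TPM in injured muscle, and Ctss, the cathepsin of antigen-presenting cells, rose by 6.11 on the log2 scale. Of 25 (of 26 listed) endoplasmic reticulum genes 18 were called higher and 1 lower (12 and 4 rescaled). Asns, asparagine synthetase, rose from at most 0.52 TPM to 26.6, 32.9 and 24.6 TPM, and Chac1 was lower (-1.87).

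Growth factor and calcium-binding genes are the last lists of the tissue's own signals. Of 13 (of 14 listed) insulin-like growth factor genes 8 were called higher and 1 lower (5 and 2 rescaled), beside 48.8% of all tested genes called higher. Igf1 measured 3.23, 4.23, 3.9 and 3.51 TPM in control and 46.8, 85.3 and 61.1 TPM in injured muscle (log2 fold change 3.76 ± 0.26 SE, adjusted p 1.8e-19). Of 15 S100 and annexin genes 13 were called higher and 1 lower (8 and 1 rescaled), with Anxa2, a receptor of plasminogen, at 13.1, 18.6, 21.5 and 11.6 TPM in control and 1194, 813 and 599 TPM in injured muscle. S100a1, the form of striated muscle, was lower, at 112, 110.3, 98.9 and 112 TPM in control and 30.5, 35.1 and 33.7 TPM in injured muscle.

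Genes of other cells that a sample of the wound could hold were checked in full. For adipocytes 1 of 8 (of 11 listed) tested genes was called higher and none after rescaling, and the list summed to 96.3 to 329 TPM in control and 741 to 992 TPM in injured muscle. The called gene was Fabp4, a fatty acid binding protein that endothelium and macrophages also express, at 243, 295, 315 and 88.7 TPM in control and 968, 719 and 746 TPM in injured muscle. Adipoq, adiponectin, measured 2.26, 1.03, 1.74 and 0.79 TPM in control and 3.85, 2.17 and 0.8 TPM in injured muscle. For Schwann cells 7 of 11 (of 15 listed) were called higher (4 rescaled), beside 48.8% (24.7% rescaled) of all tested genes, and the list summed to 14.2 to 27.6 TPM in control and 97.7 to 164 TPM in injured muscle. For tendon and cartilage 4 of 9 (of 11 listed) were called higher (2 rescaled), under these shares, and the list summed to 43.6 to 61.4 TPM in control and 202 to 291 TPM in injured muscle. Tnmd, tenomodulin, measured 0.83, 0.54, 1.49 and 0.45 TPM in control and 11.2, 3.95 and 5.05 TPM in injured muscle. Contralateral muscle 1 held 19.5 TPM of Tnmd, above every injured muscle, and against the contralateral muscle its log2 fold change was -0.27, with no call. Of 7 keratinocyte genes 1 was tested, Krt10, and it was not called, and the list summed to 0.57 to 2.87 TPM in control and 2.83 to 4.26 TPM in injured muscle. For platelets and red cells all 7 (of 12 listed) tested genes were called higher, and 2 after rescaling. The list summed to 1967 to 5426 TPM in control and 8202 to 93890 TPM in injured muscle. Hbb, a beta chain of hemoglobin, measured 1983, 811, 988 and 2247 TPM in control and 2636, 4547 and 40906 TPM in injured muscle and was not called without injured muscle 3 (1.33). Their part in the results above was not tested, and with the hemoglobin genes left out and TPM rescaled to the same total 5672 genes were called higher and 442 lower.

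Some symbols of microRNA hairpins were among those with no signal in control muscle. They were chosen after their values were seen. RNA of this kind of library comes from longer transcripts that contain the hairpin, and TPM of so short a feature is inflated, so the values do not measure the mature microRNA. Mir223 was listed at 0 in all control muscles and at 166, 105 and 75.5 TPM in injured muscle, and Mir142 at 0 and 46.5, 71.8 and 34.1 TPM. Both microRNAs are known from blood cells. Mir21 measured 0, 6.52, 3.83 and 0 TPM in control and 46.6, 71.4 and 44.3 TPM in injured muscle and Mir133b, of the muscle family, 9.63, 23.9, 19.4 and 4.88 TPM in control and 159, 340.2 and 169 TPM in injured muscle. The mature forms that RefSeq (GRCr8) lists for these loci are shown with the seed, bases 2 to 8, in capitals.
rno-miR-223-3p: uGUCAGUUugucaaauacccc
rno-miR-223-5p: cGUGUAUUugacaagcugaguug
rno-miR-142-3p: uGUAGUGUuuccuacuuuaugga
rno-miR-142-5p: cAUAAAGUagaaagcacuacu
rno-miR-21-5p: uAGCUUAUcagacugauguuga
rno-miR-21-3p: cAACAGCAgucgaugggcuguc
rno-miR-133b-3p: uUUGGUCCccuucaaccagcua
rno-miR-133b-5p: gCUGGUCAaacggaaccaagu
No pair of them shares a seed.

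The 3 injured muscles were also set against the injured muscles of 8 other unrepaired rats of the same animal series at 7 DPI, from which 3 second libraries of low complexity, of 11 libraries, had been left out. Between 3 and 7 DPI, 607 genes (5.41%) were called higher at 3 DPI and 227 (2.02%) lower. After rescaling the counts were 508 and 229. Of the cell cycle list 31 of 40 were higher at 3 DPI, and of the monocyte and macrophage list 19 of 21. Cd163 measured 104, 119.96 and 107 TPM at 3 DPI and a mean of 12.7 ± 3.56 TPM (SD, n = 8) at 7 DPI (log2 difference 3.06, adjusted p 4.9e-19). Hmox1 was also higher at 3 DPI (log2 difference 2.81), as were Il6 (2.28) and Cd8a (2.68). For Hmox1 the days overlapped, as the highest muscle at 7 DPI, at 833 TPM, exceeded the lowest at 3 DPI, at 829 TPM. In the lymphocyte list as a whole 2 of 18 genes were higher at 3 DPI and 1 lower, with a median difference of -0.39. Cd3d was not called (-0.37). Of the MHC class II list 2 of 13 were higher at 3 DPI, and of the interferon list 0 of 22.

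The lists with the most members lower at 3 than at 7 DPI were slow fiber, with 8 of 14, and provisional and matricellular genes, with 6 of 16. Periostin, Postn, measured 2.05, 2.31, 3.55 and 1.6 TPM in control and 115, 164 and 92.4 TPM in injured muscle and a mean of 1261 ± 422 TPM (SD, n = 8) at 7 DPI (log2 difference -3.32, adjusted p 4.0e-10). Cthrc1 and Tnc were lower at 3 DPI as well (-1.69 and -1.78). In the fusion and embryonic list 5 of 9 were lower at 3 DPI. Myh8 showed the widest gap of the list, at 3.5, 8.01 and 4.76 TPM against 164 ± 31.7 TPM (SD, n = 8; log2 difference -4.72). Myog was not called (0.69, adjusted p 0.061). The slow light chain Myl2 was lower at 3 DPI (-3.17), and Chrna1, Chrnd and Chrng were lower too (-1.58, -1.65 and -1.14). For each of these genes the muscles of 3 and 7 DPI overlapped in TPM. Without injured muscle 1 Myl2 (-2.33) and Chrng (-0.999) were not called in this contrast. With all libraries kept, Myl2 and the 3 receptor subunits were not called either, and 1000 genes were higher and 89 lower at 3 DPI. The fibrillar collagens had 1 of 8 called lower at 3 DPI. Without injured muscle 3 the counts were 726 and 211.

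**Figure D5:**
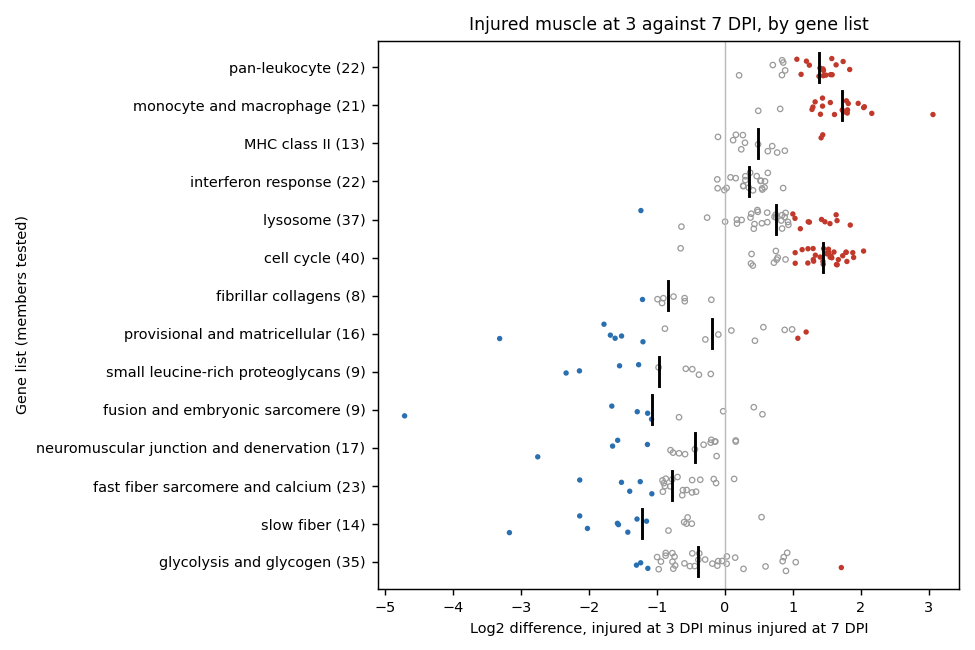
Log2 difference of injured muscle at 3 DPI (3 muscles) from injured muscle at 7 DPI (8 muscles), horizontal axis, for tested members of 14 gene lists (vertical axis), with each point 1 gene, filled when called, and a bar at the list's median. Of the macrophage list 19 of 21 and of the cell cycle list 31 of 40 are called to the right, higher at 3 DPI, and of the slow fiber list 8 of 14 to the left.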

How the data were processed

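RNA of rat TA muscle was sequenced by the authors from TruSeq libraries with 76-base paired reads. The deposited TPM values came from Kallisto with default settings and the rat 6.0 annotation, per the study's methods. TPM values do not carry the depth of each library. The study tested counts, which were not used here.

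The table held 16181 complete symbols, the last of them beginning with Tubb. The entry after these was incomplete and left out, and symbols that sort after it were not analysed here. Of 138 libraries 13 with fewer than 7000 symbols above 1 TPM were left out and 9 had no group in the labels. Libraries of 1 muscle were averaged. log2(TPM + 1) was fitted with limma 3.58.1 (trend, R 4.3.3) in 1 model of 17 groups and 68 muscles of rats that did not run, with 51 residual degrees of freedom and Benjamini-Hochberg adjustment over 11213 genes with a group mean above 1 TPM. Fold changes are on the log2(TPM + 1) scale, which understates those of low genes.

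The gene lists, the members named and the comparison were chosen with earlier results of these data known. Named genes were taken from the key members of each list, the 2 highest and, where called lower, the 2 lowest of each list, and the 12 highest and 12 lowest called genes with groups that did not overlap, and not all that this rule allows are named. Mir21, Mir133b, Mir142, Mir223 and Rpl3l were named after their values were seen. The mitochondrially encoded list had no symbol in the table. Alternatives were another pseudocount, other filters, size factors, other sets of libraries, the replicate block, another reference and leaving out muscles.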

Additional observations from a re-analysis of the deposited data

Results flagged for a closer look

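Of the groups compared only the control group has 4 muscles, and for 148 named genes the gap of the highest or lowest control muscle was divided by the range of the 4. The ratio exceeded Dixon's limit for 14 genes, where chance flags about 1 in 20 groups on each count. Control muscle 4, with the fewest symbols above 1 TPM, was the outlying muscle in 9 of them.

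It was lowest for Col3a1 (ratio 0.84, 16.8 TPM), Cxcl12 (0.939, 18.2 TPM), Gpd1 (0.936, 575.6 TPM), Mx1 (0.962, 0.22 TPM) and Pecam1 (0.964, 9.53 TPM). It was highest for Acta1 (0.858, 69428 TPM), Cox6a2 (0.962, 5259.6 TPM), Cox8b (0.955, 4213 TPM) and Masp1 (0.836, 34.1 TPM).

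The other outlying values were in other control muscles. Control muscle 3 was highest for C1qa (0.941, 9.87 TPM) and Mmp12 (1.0, 0.04 TPM) and lowest for S100a1 (0.874, 98.9 TPM). Control muscle 1 was highest for Gdf15 (1.0, 0.2 TPM), and control muscle 2 for Tnnt2 (0.859, 1.76 TPM). The group of 3 injured muscles was not checked in this way. A cause was not tested.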

How the results depend on the processing

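With size factors, 2732 genes were called higher and 1868 lower at 3 DPI. With all libraries kept, 282 were lower at 3 DPI, and 1000 were higher and 89 lower at 3 than at 7 DPI. With a pseudocount of 0.1 TPM, 381 were lower at 3 than at 7 DPI. The causes were not tested. Of the other 58 counts under the alternatives, each stayed within 1.5 times the reported one. Leaving out 1 muscle gave 4912 to 5716 genes higher and 395 to 590 lower at 3 DPI, and 554 to 726 higher and 200 to 327 lower at 3 than at 7 DPI. The rat as a replicate block, with an estimated correlation of -0.00736, left 5474 and 478 genes called and 607 and 227 against 7 DPI, and changed no call of a named gene. That correlation was estimated over the whole model, which holds 24 same-rat pairs, and a value near 0 leaves the fit nearly unchanged. The block therefore cannot show what the pairing of muscles in the control rats does to the calls. Averaging the control muscles per rat ended the call of Fos (1.05).

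Named genes kept their direction and call in 2799 of 2863 fits against a reference at 3 DPI. Of these, 151 took each library as its own sample and 151 used the replicate block. Both settings gave the same counts of called genes as the main fit, so they add little to this share. Those that turned sign were not called on deposited TPM, except Tnmd, which was -0.27 against the contralateral muscle. With size factors the log2 fold change was -0.36 for Adipoq, -0.79 for Kdr and -0.37 for Myf6. Against the contralateral muscle it was -1.32 for Adipoq and -0.0075 for Kdr. With the hemoglobin genes left out, an alternative chosen after seeing the data, it was 0.0465 for Myh11. Leaving out 1 muscle turned Actn2 (range -0.23 to 0.13), Dmd (-0.505 to 0.32), Kdr (-0.0273 to 0.35) and Myh11 (-0.351 to 0.19).

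The files give no depth, so values carry no counting interval and a value of 0 sets no limit. Of the counts of called list members under the alternatives, 1939 stayed within 1.5 times the reported count and 111 did not. Of the latter, 43 came with size factors, 26 against the contralateral muscle and 16 with all libraries kept. Only those with size factors are given list by list. Groups of 3 and 4 muscles from 3 and 2 rats limit the precision.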
